A study of Mus musculus with 12 samples.

Results

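The mitotic kinases described here are 10 genes, Aurka, Aurkb, Plk1, Bub1, Bub1b, Ttk, Nek2, Cdk1, Melk and Wee1, named as kinases of mitosis or its entry, with earlier results of these data known. Each had 1 probe set, so the 10 were 10 of the 25206 probe sets on the arrays, of which 23185 carry 1 gene symbol. Their mRNA was measured on 12 Affymetrix arrays of mouse pluripotent cells. The groups share their C57BL/6 female origin and their culture on gelatin, without feeders or serum, in 2iLIF medium, which holds stem cells undifferentiated. The groups were embryonic stem cells (ESC) with low potential, ESC with high potential, induced pluripotent stem cells (iPSC, somatic cells reprogrammed to pluripotency) with low potential and iPSC with high potential, with 3 arrays in each. Potential here is that of the mitochondrial membrane, read from TMRM, a dye that mitochondria take up more as it rises. The fractions were separated by fluorescence-activated sorting. The design asks how the transcriptome differs between the low and the high fraction. The labels name no line, clone or culture behind an array, so p-values reflect only how these arrays vary, which may be technical.

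Cells enter mitosis when Cdk1, bound to a B-type cyclin, is switched on. Wee1 holds Cdk1 off by phosphorylating it, and Cdc25 phosphatases remove that block. Aurka ripens the centrosomes and activates Plk1. Plk1 drives mitotic entry and spindle assembly. Aurkb, in the chromosomal passenger complex, corrects faulty attachments of chromosomes to the spindle. Ttk, Bub1 and Bub1b run the spindle assembly checkpoint, which holds back anaphase until all chromosomes are attached, and Nek2 separates the centrosomes. Melk is a kinase of the AMPK family that peaks with the others in dividing cells. The mRNA of many such genes is low in G1 and rises toward mitosis. In cultured pluripotent cells, which divide fast and spend little time in G1, these kinases are broadly present.

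Over both cell types, 6 of the 10 kinases rose in the high fraction and 0 fell, while 4 did not pass the test. The 6 were Aurka, Aurkb, Cdk1, Plk1, Bub1b and Ttk, and the 4 were Nek2, Wee1, Bub1 and Melk. Over all probe sets, 1.6% were called as higher and 0.905% as lower in that comparison. The median difference of the 10 kinases was 0.31 on the log2 scale, against 0.00293 over all probe sets. By mean level, the kinases stood above 90.6% (Cdk1) to 97.1% (Plk1) of probe sets. With only the 12603 probe sets above the median level tested, 324 of them and 7 of the 10 kinases were called as higher. A rise means an adjusted p under 0.05 in limma's moderated test, adjusted over all 25206 probe sets. Within ESC 4 of the 10 rose and 0 fell (0.305% of all probe sets were called as higher and 0.0516% as lower). Within iPSC 4 rose and 0 fell (0.349% and 0.198% of all probe sets). These were Aurka, Aurkb, Plk1 and Cdk1 in both cell types. Of these calls, Cdk1 in ESC and Plk1 in iPSC were lost in most alternative fits, as given below. The cell types share no arrays, but each test within a cell type used a variance estimated over the arrays of both. With only the arrays of the compared groups in the fit, 0 of the 10 kinases passed in ESC and 2 of the 10 in iPSC. In these bulk samples, more cells in or near mitosis and more mRNA per cell cannot be told apart.

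**Figure D1:**
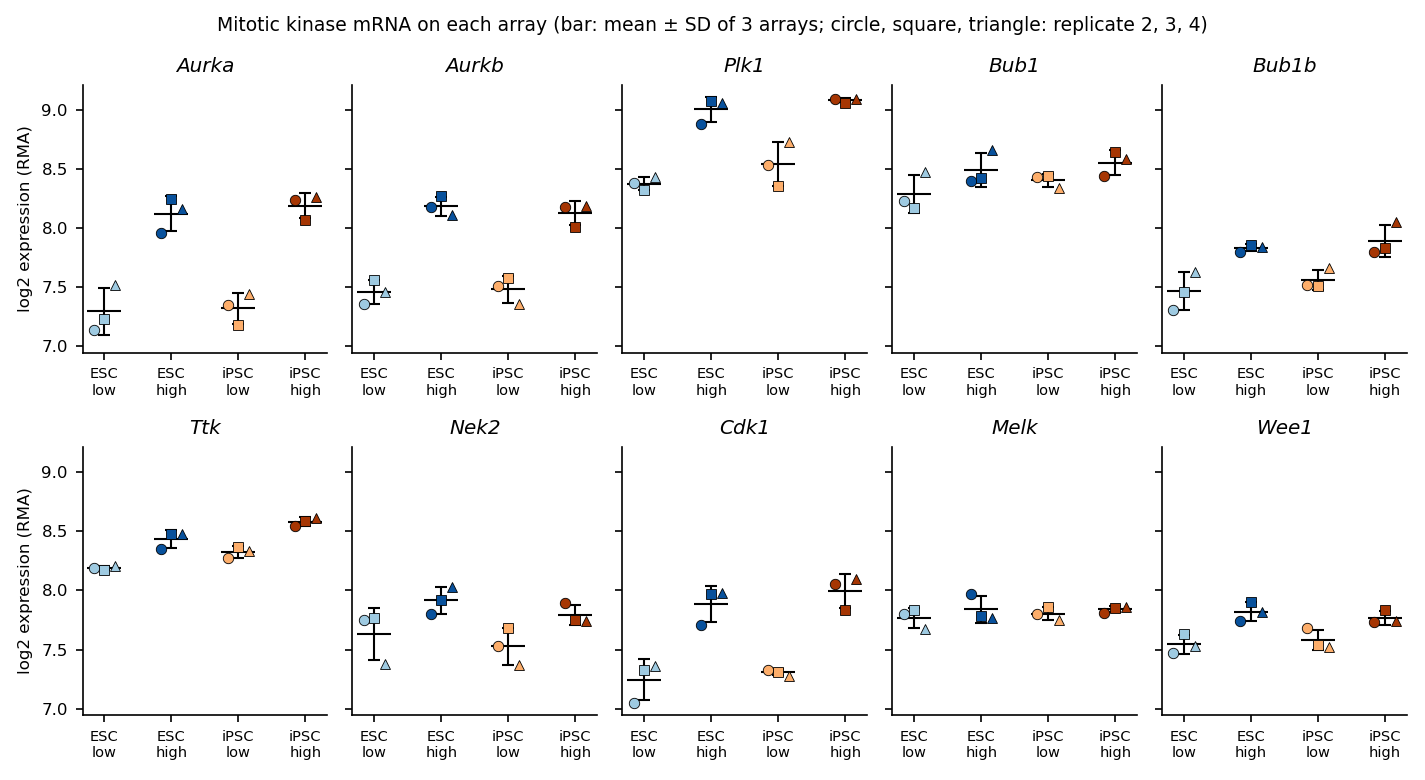
log2 expression (RMA, y axis) of the 10 mitotic kinases on each of the 12 arrays, by group; circles, squares and triangles are replicates 2, 3 and 4, and bars give the mean ± SD of 3 arrays. For Aurka, Aurkb, Plk1 and Cdk1 each high array lies above each low array, while for Melk the 4 groups overlap; levels of different genes are not compared.

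The control regions of these kinases are shown here because genes of this class often share 2 short motifs. One is the cell cycle genes homology region (CHR), bound by complexes of the MuvB core, B-Myb and FoxM1. The other is the CCAAT box, bound by the factor NF-Y. RefSeq promoter windows of assembly GRCm38.p6, 250 bases before to 50 bases after a transcript start, were matched for 8 of the 10 kinases by symbol. Aurkb and Wee1 were not among the matched genes. Both strands were searched for the CHR letters TTTGAA and TTCGAA and, separately, for the letters CCAAT. A CHR match was present in 6 of the 8 windows, against 19.2% of all 32851 windows. A CCAAT match was present in 7 of 8, against 37.4%. Both were present in 6 of 8, against 7.52% of all windows. The 6 genes with both were Aurka, Plk1, Bub1, Bub1b, Ttk and Cdk1. Nek2 had a CCAAT match alone, and Melk had neither. A match of letters does not show that a factor binds there.

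Stretches of 100 bases are printed for Cdk1, which holds several matches, for Plk1 and Bub1, and for Melk as the window without a match. They end just before the transcript start, except for Melk, whose stretch runs from base -108 to base -9 because another annotated start lies further out. Capitals mark the CHR and CCAAT letters on either strand. The stretches are Cdk1 at chr10:69352913-69353012 on the minus strand, Plk1 at chr7:122159335-122159434 on the plus strand, Bub1 at chr2:127831860-127831959 on the minus strand and Melk at chr4:44300809-44300908 on the plus strand.
Cdk1: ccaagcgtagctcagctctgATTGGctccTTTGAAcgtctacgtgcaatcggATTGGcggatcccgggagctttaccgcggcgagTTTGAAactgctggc
Plk1: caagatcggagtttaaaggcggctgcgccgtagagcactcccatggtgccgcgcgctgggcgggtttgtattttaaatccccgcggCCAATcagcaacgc
Bub1: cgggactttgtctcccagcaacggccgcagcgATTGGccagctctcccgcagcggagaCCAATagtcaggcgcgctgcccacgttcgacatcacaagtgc
Melk: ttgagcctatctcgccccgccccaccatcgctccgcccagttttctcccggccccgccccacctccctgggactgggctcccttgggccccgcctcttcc

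Positions count from the start, with the first transcribed base as 1 and the base before it as -1. In Cdk1, CHR letters began at -71 and -15, and reversed CCAAT letters at -208, -80 and -48. In the other 5 genes with a CHR match it lay just after the start, and its surroundings are printed because the upstream stretches do not show it. The match began at base 33 in Aurka, 31 in Plk1, 15 in Bub1, 41 in Bub1b and 8 in Ttk, where it is on the opposite strand. Bub1b had a further match that began at -188. The stretches are chr2:172370523-172370548 on the minus strand, chr7:122159455-122159480 on the plus strand, chr2:127831830-127831855 on the minus strand, chr2:118598241-118598260 on the plus strand and chr9:83834686-83834711 on the plus strand, in the order of the lines.
Aurka: aaggagaaccTTTGAAttgtaacggc
Plk1: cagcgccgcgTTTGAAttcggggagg
Bub1: gcgcggggaaTTCGAAtcgccggcgg
Bub1b: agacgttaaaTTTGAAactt
Ttk: gcggggaaatTTCAAAcgtgtttccg

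**Figure D2:**
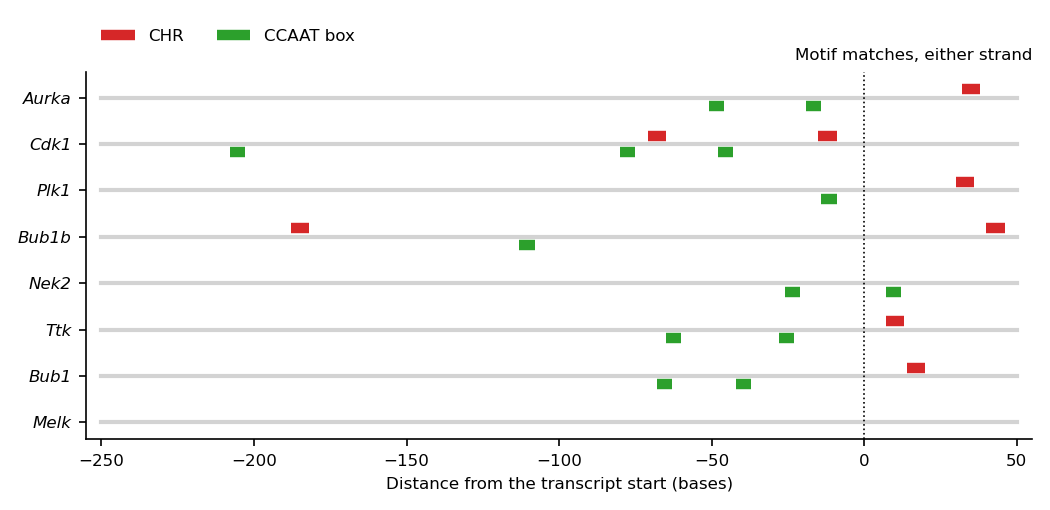
Positions of CHR (red, above each line) and CCAAT (green, below) letters in the 8 promoter windows, as distance in bases from the transcript start (x axis); genes are ordered by their high minus low difference over both cell types, largest at the top. Melk shows no match and Nek2 shows CCAAT matches alone, while the other 6 genes show both.

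Of the 6 genes whose windows hold both motifs, 5 rose over both cell types and Bub1 did not pass. Nek2 and Melk, whose windows hold no CHR letters, did not pass either. Yet Nek2 differed by 0.27 ± 0.09, near Ttk at 0.25 ± 0.06 and above Bub1 at 0.18 ± 0.08, which hold CHR letters. The split by call is thus not a split by size of difference. With 8 windows this is a description.

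Cdk1, the kinase whose activation starts mitosis, stood on the log2 scale at 7.05, 7.33 and 7.36 in ESC low and at 7.71, 7.97 and 7.98 in ESC high. In iPSC it stood at 7.33, 7.31 and 7.28 in low arrays and at 8.05, 7.83 and 8.10 in high arrays. The high arrays did not overlap the low arrays in either cell type. Cdk1 rose by 0.66 ± 0.08 (SE) over both cell types, or 1.58-fold (adjusted p = 0.00112, limma). The difference was 0.64 ± 0.11 in ESC (adjusted p = 0.0378) and 0.68 ± 0.11 in iPSC (adjusted p = 0.0241). The call in ESC held in 5 of 17 alternative fits and the call in iPSC in 13 of 17. The 6 high-low pairs of equal replicate number differed by 0.52 to 0.82.

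Wee1, which opposes Cdk1, stood at 7.47, 7.63 and 7.53 in ESC low and 7.74, 7.90 and 7.82 in ESC high. In iPSC it stood at 7.68, 7.54 and 7.52 in low arrays and 7.73, 7.83 and 7.74 in high arrays. The arrays were apart in both cell types, but by a narrow gap in iPSC. Over both cell types Wee1 was at 0.23 ± 0.06, with an interval from 0.09 to 0.37 (adjusted p = 0.0836). It passed when only probe sets above the median level were tested (adjusted p = 0.0429) and with an intensity trend and robust variances (adjusted p = 0.0346), and in none of the other 14 alternative fits.

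Aurka had the largest difference of the 10 in both cell types. Its levels were 7.14, 7.23 and 7.52 in ESC low and 7.96, 8.25 and 8.16 in ESC high, and 7.35, 7.18 and 7.44 in iPSC low and 8.24, 8.07 and 8.26 in iPSC high. The high and low arrays were well apart in both cell types. Aurka rose 1.80-fold over both cell types (95% interval 1.58 to 2.05), and its log2 difference ranked 93 from the highest among the 25206 probe sets. Within cell types the difference was 0.83 ± 0.12 in ESC (adjusted p = 0.0142) and 0.87 ± 0.12 in iPSC (adjusted p = 0.0129).

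Aurkb, the kinase of the passenger complex, stood at 7.36, 7.56 and 7.46 in ESC low and 8.18, 8.27 and 8.11 in ESC high. In iPSC it stood at 7.51, 7.58 and 7.36 in low arrays and 8.18, 8.01 and 8.19 in high arrays. No high array reached down to a low array. It rose 1.61-fold over both cell types (95% interval 1.45 to 1.78), which ranked 183 from the highest. The adjusted p was 0.00963 in ESC and 0.0173 in iPSC.

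Plk1 stood at 8.38, 8.32 and 8.43 in ESC low and 8.88, 9.07 and 9.06 in ESC high. In iPSC the low arrays spread from 8.36 to 8.73 (8.53, 8.36 and 8.73), and the high arrays lay close together at 9.09, 9.06 and 9.09. All high arrays lay above all low arrays. Plk1 rose by 0.58 ± 0.07 over both cell types (adjusted p = 0.00134), which ranked 254 from the highest. The difference was 0.62 ± 0.10 in ESC (adjusted p = 0.0251) and 0.54 ± 0.10 in iPSC, with an adjusted p of 0.0403 that became 0.0509 under the replicate block. The call in ESC held in 10 of 17 alternative fits and the call in iPSC in 4 of 17.

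**Figure D3:**
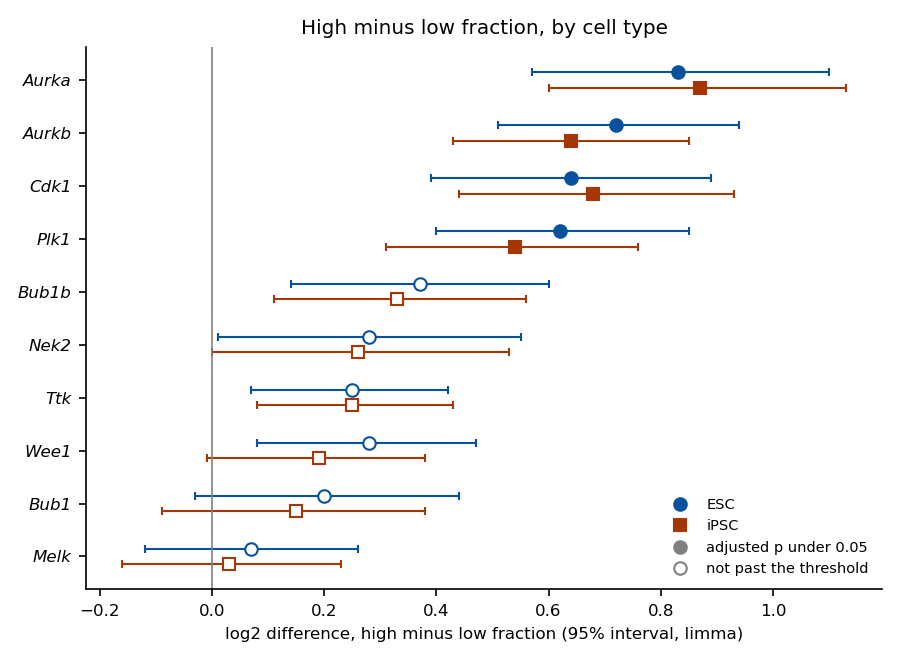
log2 difference between the high and the low fraction (x axis) of each kinase with its 95% interval from limma, in ESC (circles) and iPSC (squares); filled symbols passed an adjusted p of 0.05. Aurka, Aurkb, Cdk1 and Plk1 are filled in both cell types, the ESC and iPSC intervals of each kinase overlap, and Melk in iPSC, drawn at 0.03, turns to -0.02 when each array is centred on its median.

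Of the 3 checkpoint kinases, Bub1b and Ttk rose over both cell types, and neither passed within 1 cell type. Bub1b, the kinase-like inhibitor of the anaphase-promoting complex, stood at 7.31, 7.46 and 7.63 in ESC low and at 7.80, 7.86 and 7.84 in ESC high, and at 7.52, 7.51 and 7.66 in iPSC low and 7.80, 7.83 and 8.05 in iPSC high. Its high arrays were above its low arrays in both cell types. It rose by 0.35 ± 0.07 (adjusted p = 0.0267).

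Ttk, which starts checkpoint signalling at kinetochores, had small spreads, at 8.19, 8.17 and 8.21 in ESC low and 8.35, 8.48 and 8.48 in ESC high, and 8.27, 8.37 and 8.33 in iPSC low and 8.54, 8.59 and 8.61 in iPSC high. Its groups were apart in each cell type. It rose by 0.25 ± 0.06, or 1.19-fold (adjusted p = 0.0379, or 0.0552 with the replicate block).

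Bub1, which places other checkpoint proteins at kinetochores, overlapped between fractions. It stood at 8.23, 8.17 and 8.47 in ESC low, 8.40, 8.42 and 8.66 in ESC high, 8.43, 8.44 and 8.34 in iPSC low and 8.44, 8.64 and 8.58 in iPSC high. Its difference over both cell types was 0.18 ± 0.08 (adjusted p = 0.288). Replicate 4 was the highest of the 3 arrays in both ESC fractions, and within the 6 numbered pairs the difference ran from 0.01 to 0.25.

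Nek2, which unlinks the paired centrosomes, was apart between the fractions in both cell types but spread widely among the low arrays. It stood at 7.75, 7.77 and 7.38 in ESC low, 7.80, 7.92 and 8.03 in ESC high, 7.53, 7.68 and 7.37 in iPSC low and 7.89, 7.75 and 7.74 in iPSC high. Replicate 4 was the lowest of the low arrays in each cell type. The difference over both cell types was 0.27 ± 0.09 (adjusted p = 0.139), about that of Ttk with a larger error.

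Melk showed the smallest difference of the 10. It stood at 7.80, 7.83 and 7.67 in ESC low, 7.97, 7.78 and 7.77 in ESC high, 7.80, 7.86 and 7.75 in iPSC low and 7.81, 7.85 and 7.86 in iPSC high. All 4 groups overlapped. The difference over both cell types was 0.05 ± 0.06 with an interval from -0.09 to 0.19 (adjusted p = 0.756). The intervals of Aurka, Aurkb, Cdk1 and Plk1 each began at 0.42 or above, and that of Melk ended below this value. Differences between kinases were not tested.

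Counting arrays rather than tests, 8 of the 10 kinases (all but Bub1 and Melk) had each high array above each low array in both ESC and iPSC. Over all probe sets this held for 1.98% in that direction. It held for 6.71% within ESC alone and for 9.76% within iPSC alone, where the count of kinases was also 8 each. Of the 2 kinases with overlapping arrays, Bub1 was higher in the high fraction in 6 of 6 pairs of equal replicate number and Melk in 4 of 6. The labels do not state such a pairing, and it was inferred from the arrays, weakly so in iPSC.

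The calls over both cell types for Aurka, Aurkb, Plk1 and Cdk1 held in 16 of 16 alternative fits, with the highest adjusted p at 0.00548. Those for Bub1b and Ttk were near the threshold. Bub1b lost its call when each array was centred on its median (0.0538) and in 7 of 12 fits without 1 array. Those left out replicate 2 (0.0602) or 3 (0.0543) of ESC low, 2 (0.0536) or 3 (0.0699) of ESC high, 2 (0.0503) or 3 (0.0709) of iPSC low, or 4 (0.0691) of iPSC high. Ttk lost its call with centring (0.0915) and in 11 of 12 fits without 1 array. Those left out replicate 2 (0.0718), 3 (0.0766) or 4 (0.0648) of ESC low, 3 (0.0985) or 4 (0.0725) of ESC high, 2 (0.0717), 3 (0.0673) or 4 (0.0792) of iPSC low, or 2 (0.0636), 3 (0.0839) or 4 (0.0925) of iPSC high. The values in brackets are limma's adjusted p.

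Within a single cell type the calls changed when arrays were left out. In ESC, 0 of the 10 kinases passed once the low array numbered 2 was left out, 1 passed without the high array 2 or 3, and 2 passed without the low array 3, the low array 4 or the high array 4. In iPSC, 0 passed once the high array 4 was left out, and 1 passed without the low array 3, the low array 4 or the high array 2, and 3 passed without the low array 2 or the high array 3. With each array centred on its median, Cdk1 in ESC (adjusted p = 0.058) and Plk1 in iPSC (adjusted p = 0.0758) lost their calls. Over the 17 alternatives Aurka stayed between 0.75 and 0.94 in ESC and between 0.80 and 0.92 in iPSC, and Cdk1 between 0.55 and 0.73 and between 0.63 and 0.77. A fit to the 6 ESC arrays alone called 0 of the 10 and 39 of all probe sets, with an adjusted p of 0.0807 for Aurka and 0.0519 for Aurkb. A fit to the 6 iPSC arrays alone called 2 of the 10 and 100 of all probe sets. Cdk1 in ESC kept its call in 5 of the 17 alternatives (highest adjusted p 0.16), and Plk1 in iPSC in 4 of 17 (highest 0.138). Part of these losses came without 1 array outside the compared cell type, and there the threshold was missed by little. For Cdk1 these were the fits without array 3 (0.0598) or 4 (0.0506) of iPSC low and 2 (0.0582) or 4 (0.0501) of iPSC high. For Plk1 they were the fits without array 2 (0.0518), 3 (0.053) or 4 (0.0562) of ESC low and 3 (0.0572) of ESC high.

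The high minus low differences of the kinases in ESC and iPSC were close to each other. The difference between the cell types (iPSC effect minus ESC effect) ran from -0.09 for Wee1 to 0.04 for Cdk1, and 0 of 10 passed limma's interaction test (0% of all probe sets passed, with 1100 at an unadjusted p under 0.05). The interval was -0.34 to 0.41 for Aurka, -0.38 to 0.22 for Aurkb, -0.40 to 0.23 for Plk1 and -0.31 to 0.39 for Cdk1. All 10 intervals included 0, with bounds from -0.40 to 0.41.

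Levels also differed little between iPSC and ESC of the same fraction. Over both fractions 0 of 10 kinases passed (2.87% of all probe sets), with differences from -0.12 ± 0.09 for Nek2 to 0.14 ± 0.06 for Ttk. Ttk was the kinase whose iPSC arrays lay above its ESC arrays in both fractions (1.81% of all probe sets did so), and its adjusted p was 0.262. The intervals of the other 9 kinases included 0. Within the low fraction 0 of 10 passed (0.397% of all probe sets), and within the high fraction 0 of 10 (0.186%). Ordered by group mean, 7 kinases ran from ESC low through iPSC low and ESC high to iPSC high. Aurkb and Wee1 had ESC high on top, and Nek2 had iPSC low at the bottom and ESC high on top. The arrays of the lower 2 groups overlapped for 9 of 10 kinases, as did those of the upper 2, in each case all but Ttk (iPSC arrays lay above ESC arrays for 8.04% of all probe sets among low and 8.16% among high fractions). Between the middle groups of the order, the arrays of Bub1, Ttk, Nek2 and Melk also overlapped.

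Most genes for proteins that work with these kinases did not pass. Over both cell types 1 of 7 Aurora partners and 2 of 11 checkpoint partners rose. Of the measured cyclin and Cks subunits of Cdk1 0 of 4 rose, and of the Cdk1 regulators 2 of 8. Over all probe sets, 1.6% were called as higher and 0.905% as lower in the high fraction over both cell types. In iPSC against ESC over both fractions, from which calls are also named below, 2.87% of all probe sets were called. Of 7 Aurora activators and passenger subunits, 1 rose over both cell types and 0 fell (median 0.22). This was Incenp, the scaffold of the passenger complex that carries Aurkb, at 0.60 ± 0.06 (adjusted p = 0.000593). It also passed in ESC (0.60 ± 0.09, adjusted p = 0.0183) and iPSC (0.60 ± 0.09, adjusted p = 0.0173). Tpx2, which activates Aurka on the spindle, was at 0.23 ± 0.06 (adjusted p = 0.0794), Cdca8 at 0.22 ± 0.07 and Bora, the cofactor for Plk1 activation, at 0.26 ± 0.09.

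Of 11 spindle checkpoint partners, 2 rose and 0 fell (median 0.13). These were Cdc20, the activator of the anaphase-promoting complex that the checkpoint restrains (0.51 ± 0.08, adjusted p = 0.00475), and Bub3, the partner of Bub1 and Bub1b (0.39 ± 0.07, adjusted p = 0.0155). Knl1, the kinetochore platform for Bub1, was at 0.20 ± 0.08 and Sgo1, the protector of cohesion, at 0.21 ± 0.09. In iPSC against ESC over both fractions, Kntc1 of this list was lower (-0.31 ± 0.07, adjusted p = 0.0375).

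For Cdk1 itself, 0 of 4 measured cyclin and Cks subunits passed, with Cks2 at 0.22 ± 0.10, Ccnb2 at 0.13 ± 0.09, Cks1b at 0.09 ± 0.09 and Ccna2 at 0.03 ± 0.06. The B-type cyclin Ccnb1 was listed but matched no probe set by symbol, so it was not measured here. Of 8 enzymes and inhibitors that act on Cdk1, 2 rose and 0 fell, with a median of -0.10. The 2 were phosphatases that relieve the Wee1 block, Cdc25b (0.49 ± 0.08, adjusted p = 0.00723) and Cdc25c (0.37 ± 0.08, adjusted p = 0.0217). Cdc25a of the same family, named after its values were seen, was at -0.15 ± 0.08 (adjusted p = 0.442). Cdk7, the kinase that activates Cdk1, was at -0.17 ± 0.08 (adjusted p = 0.287) and the inhibitor Cdkn1a at -0.36 ± 0.12 (adjusted p = 0.144).

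Of 11 other kinases of mitosis, 0 passed over both cell types (median 0.01), with Haspin, which phosphorylates histone H3 to place Aurkb, at 0.29 ± 0.10 (adjusted p = 0.171), Cit, a kinase of cytokinesis, at 0.22 ± 0.08, Nek7 at -0.14 ± 0.07 and Lats2 at -0.27 ± 0.14. In iPSC against ESC, Vrk1 (-0.46 ± 0.09, adjusted p = 0.0156) and Nek9 (-0.37 ± 0.07, adjusted p = 0.019) of this list were lower. Of 11 relatives of the Aurora, Polo, Nek and Wee families, 0 passed with the fraction (median 0.06). Among them Plk2, a Polo kinase induced by p53, was at -0.65 ± 0.16 (adjusted p = 0.058), opposite in sign to Plk1, Nek11 at 0.26 ± 0.07, Nek3 at 0.17 ± 0.09 and Nek10 at 0.15 ± 0.09.

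Of 17 genes for subunits or inhibitors of the phosphatases that counter these kinases, 0 passed (median 0), with Arpp19, an inhibitor of PP2A in mitosis, at -0.25 ± 0.06 (adjusted p = 0.0548), Cdc14b at -0.19 ± 0.08, Ppp2r5e at 0.16 ± 0.07 and Ppp1cc at -0.33 ± 0.18. Ppp2r5e (-0.43 ± 0.07, adjusted p = 0.00442), Ppp2r5c (-0.29 ± 0.06, adjusted p = 0.0298) and Ppp1cb (-0.31 ± 0.07, adjusted p = 0.0307) were lower in iPSC than in ESC over both fractions. Of 14 transcription factors of mitotic genes, 0 rose and 1 fell (median 0). This was Nfyb, a subunit of the factor that binds the CCAAT box, at -0.38 ± 0.07 (adjusted p = 0.012). Nfya was at -0.22 ± 0.08 (adjusted p = 0.167), Rbl2 at -0.16 ± 0.07 and Foxm1 at 0.20 ± 0.07 (adjusted p = 0.206). In iPSC against ESC, Lin54, the subunit of MuvB that contacts CHR letters, was lower (-0.35 ± 0.08, adjusted p = 0.0319).

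**Figure D4:**
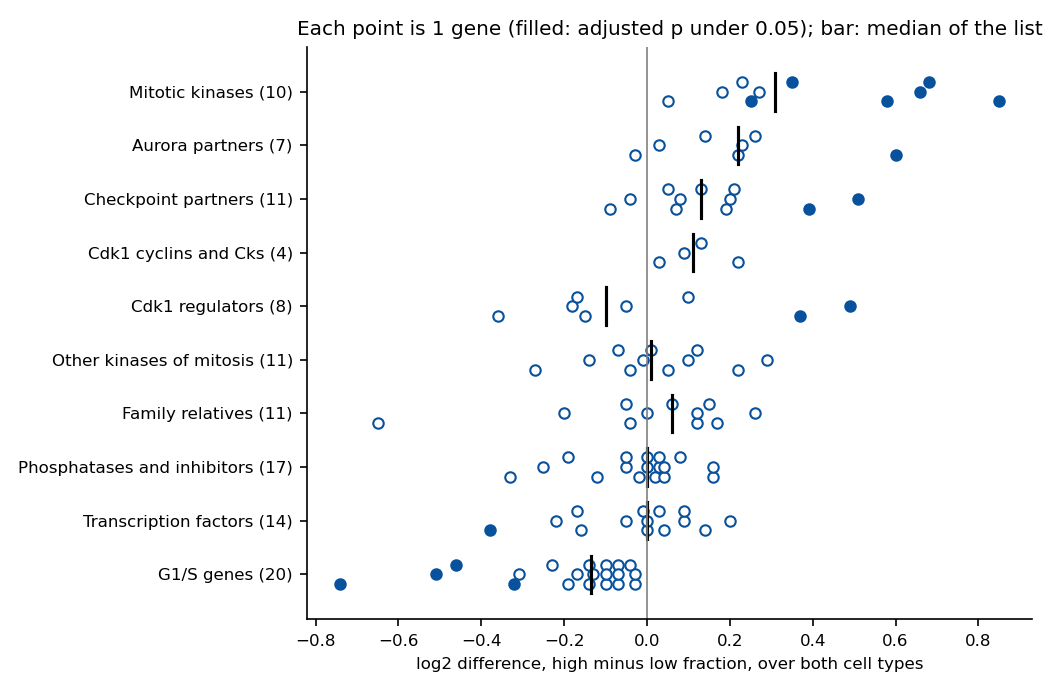
log2 difference between the high and the low fraction over both cell types (x axis) for the 10 mitotic kinases and for 9 lists of related genes, with the number of measured genes in brackets; each point is 1 gene, filled where the adjusted p was under 0.05, and the bar is the list's median. The medians are 0.31 for the kinases, 0.22 for Aurora partners and -0.13 for G1/S genes.

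Of 20 measured G1/S genes, many of which act before or during DNA replication, 4 fell, 0 rose and 16 did not pass over both cell types (median -0.13). Those that fell, against 0.905% of all probe sets called as lower, were Ccne2 (-0.74 ± 0.09), Cdc6 (-0.46 ± 0.08), Ung (-0.51 ± 0.09) and Slbp (-0.32 ± 0.07). The mean level of this list per array was 8.45 to 8.49 in ESC low, 8.29 to 8.38 in ESC high, 8.42 to 8.48 in iPSC low and 8.16 to 8.25 in iPSC high. The mean of the 10 kinases per array was 7.67 to 7.76, 8.08 to 8.19, 7.78 to 7.80 and 8.15 to 8.22 in those groups. In iPSC against ESC over both fractions (2.87% of all probe sets called), Rrm2 (-0.52 ± 0.07, adjusted p = 0.00264) and Mcm7 (-0.26 ± 0.06, adjusted p = 0.0293) of this list were lower. The part of the cell cycle in the kinases' differences was not tested.

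The 5 genes whose values over the 12 arrays were most like the mean of the 10 kinases, out of 11830 named probe sets above the median level, were Ube2c (Pearson r = 0.986), Cdca2 (0.982), Jpt1 (0.974), Troap (0.974) and Kif2c (0.972). The 12 arrays share the split into a low and a high fraction, and the r values are given as a description. Ube2c is the ubiquitin-conjugating enzyme that works with the anaphase-promoting complex, Cdca2 a chromatin-bound regulator of protein phosphatase 1, Troap a spindle-associated protein and Kif2c a microtubule-depolymerising kinesin. Their high minus low differences over both cell types, which this choice largely fixes and which are given without a test, were 0.71 (Ube2c), 0.59 (Cdca2), 0.70 (Jpt1), 0.50 (Troap) and 0.43 (Kif2c).

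The arrays were alike in general, with medians from 3.51 to 3.61 and correlations across probe sets from 0.986 to 0.994. All 10 pluripotency markers had mean levels above the median probe set (3.56), from 3.91 to 10.55 (Nanog). Their values did not pass between fractions (10 measured, 0 rose, 0 fell). In iPSC against ESC over both fractions, 1 of the 10 rose, Klf2 (0.39 ± 0.09, adjusted p = 0.0369), against 2.87% of all probe sets called. Also above the median probe set were 2 of 10 fibroblast markers (brightest Thy1 at 3.86), 6 of 10 endoderm markers (Lama1 at 6.98), 6 of 9 neural markers (Map2 at 5.66) and 3 of 9 mesoderm markers (Eomes at 5.03). Of these 4 lists, 0 genes passed in a comparison of high and low. In the blood and macrophage list, 1 of 9 rose, the lysosomal protein Cd68 (0.82 ± 0.09, adjusted p = 0.000828), while the leukocyte marker Ptprc stood at 1.72 and the macrophage marker Adgre1 at 1.98.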

How the data were processed

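The data were 12 one-colour Affymetrix arrays in 4 groups of 3. The authors deposited log2 expression values per probe set, made with RMA (background correction, quantile normalization and probe summary) using affy 1.36.1 and R 2.15.1, per the submitters' processing notes. For the chip definition and build, the sources used here give nothing. Quantile normalization makes a shift shared by all genes invisible. Depth does not apply, and the number of arrays limits precision. RMA values carry no detection calls.

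Here R 4.3.3 and limma 3.58.1 fitted 1 mean per group over 12 arrays without a block, with moderated variances and Benjamini-Hochberg adjustment over 25206 probe sets (threshold 0.05). Adjusted p-values are limma's. Errors after ± are standard errors of differences. The fit was tested on simulated data. Promoter letters were searched in Python 3.11.15, and figures drawn with matplotlib 3.10.9. Gene names came from the platform annotation.

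Deviations from the group mean of equal-numbered low and high arrays of a cell type correlated at 0.11 to 0.34. For other numbers the values were -0.23 to 0. Deviations sum to 0 within a group, so positive values for equal numbers bring negative ones for others, which add no separate evidence. In the replicate block and the numbered pairs, the number was taken as pairing the arrays, an inference from the data. The main fit did not use it. Between cell types equal numbers gave -0.09 to 0.13 and were not taken as pairs.

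Named genes were the 10 kinases, up to 4 genes of lowest p per related list plus those passing, and the 5 genes of highest correlation. Cdc25a and markers of other cells were named beyond that rule, with values seen. Members and lists were chosen with earlier results of these data known. Alternatives were a replicate block, median centring, a filter on dim probe sets, trend and robust variances, only the compared arrays, and leaving out each array.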

Additional observations from a re-analysis of the deposited data

How the results depend on the processing

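With the replicate block, Plk1 in iPSC and Ttk over both cell types lost their calls (values above), and the block changed no other call of the 10 kinases. It called 177 probe sets against 90 in ESC, 236 against 138 in iPSC and 1 against 0 for the interaction. Fits to only the compared arrays called 0 of 10 kinases and 39 probe sets in ESC, 2 of 10 kinases in iPSC, 3 probe sets for iPSC against ESC in the low fraction (100 in the fit of 12 arrays) and 1 in the high fraction (47). Those 2 comparisons gave 223 and 148 probe sets above the median level only, and 220 and 155 with trend and robust variances. Leaving out 1 array, the kinases called numbered 0 to 4 within ESC and 0 to 4 within iPSC. The probe sets called ranged from 19 to 111 in ESC, 1 to 208 in iPSC, 380 to 695 over both cell types (631 with 12 arrays), 394 to 680 for iPSC against ESC over both fractions (724), 14 to 74 in the low fraction and 1 to 48 in the high fraction. With median centring, higher calls made up another share of all calls, going from 63.8% to 45.2% in iPSC, from 63.9% to 49.5% over both cell types, and from 43.0% to 53.2% for iPSC against ESC in the low fraction. The cause of these changes was not tested, and some of these fits, but not all, hold fewer arrays or probe sets.

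Over both cell types, 137 of 160 alternative values of single kinases kept direction and side of the threshold, 21 lost the call, 2 gained it and 0 turned. In ESC 145 of 170 kept and 25 lost it, and in iPSC 146 kept and 23 lost it. Uncalled values near 0 turned sign. With median centring, Melk in iPSC went from 0.03 to -0.02 and in iPSC against ESC (high fraction) from 0 to -0.03, and the interaction went from 0.03 to 0 for Aurka and from 0 to -0.03 for Ttk. Without 1 array, the interaction ranged from -0.08 to 0.11 for Aurka, -0.14 to 0.03 for Bub1, -0.12 to 0.04 for Bub1b, -0.04 to 0.14 for Cdk1, -0.07 to 0.03 for Melk, -0.10 to 0.11 for Nek2, -0.17 to 0.01 for Plk1 and -0.04 to 0.03 for Ttk. For iPSC minus ESC the same ranges were -0.04 to 0.01 for Aurkb, 0 to 0.05 for Melk and -0.04 to 0.01 for Wee1 over both fractions. In the low fraction they were -0.05 to 0.14 for Aurka, -0.03 to 0.08 for Aurkb, -0.03 to 0.12 for Cdk1, -0.01 to 0.07 for Melk and -0.01 to 0.08 for Wee1. In the high fraction they were -0.02 to 0.13 for Aurka, -0.02 to 0.11 for Bub1b and -0.03 to 0.07 for Melk.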
